A study of Mus musculus with 4 samples.

Results

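The results concern 2 of the 4 two-colour arrays of the series. They compare mouse embryonic fibroblasts (MEFs) that stably carry a Dlx3 expression plasmid with MEFs that carry the empty plasmid. The 2 arrays were chosen by their titles, and the title of the second calls it a biorepeat of the stable transfection. On each, total RNA of the Dlx3 cells was labelled with Cy5 and total RNA of the empty-plasmid cells with Cy3, and both were hybridised to the same slide. The other 2 arrays are of MEFs examined 24 h after transfection with Dlx3 against control MEFs. They served to estimate the spread between arrays, to read the Dlx3 probe and for a single comparison near the end. The mouse strain, the promoter of the plasmid, and whether the stable cells were 1 clone or a pool are not given in the sources used here. Every value is the log2 ratio of the Dlx3 channel over the control channel after normalization, so a positive value means more RNA in the Dlx3 cells. The dyes ran the same way on all arrays, and an effect of Dlx3 and an effect of the dyes on a probe cannot be told apart.

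Dlx3 is a homeodomain transcription factor of the distal-less family. It acts in the placenta, in the differentiating epidermis and hair follicle, and in cells that form bone and teeth, and mutations in the human gene cause a syndrome of hair, tooth and bone defects. The homeodomain recognises short AT-rich DNA with a TAATT core. Fibroblasts from mouse embryos are mesenchymal cells that make collagen and other matrix, and a stable transfectant has lived with its plasmid through drug selection and many divisions.

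The probe for Dlx3 itself read 0.06 and 0.23 on the stable arrays, which was not called as different (limma adjusted p = 0.396). Its net intensities were 1037 and 1721 in the Dlx3 cells against 996 and 1466 in the empty-plasmid cells, close to each other on both arrays. All lay below the 95th percentile of the randomized oligonucleotides described below. On the transient arrays the probe read 0.14 and 0.56 and was not called either (limma adjusted p = 0.179). Which part of the transcript this probe reads was not known here, so the labels of the Dlx3 cells were not checked by it, and every direction below rests on those labels. Of the genes in the series title, Lifr, a receptor subunit for leukaemia inhibitory factor, rose (0.38 and 0.74, adjusted p = 0.0194). Chrdl1, whose secreted product binds and blocks BMPs (bone morphogenetic proteins), read -0.06 and 1.45 (adjusted p = 0.151).

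Signal without a target was common on these arrays. Of the randomized oligonucleotides, 54.2 and 52.6% lay above local background, against 86.9 and 87.2% of the transcript spots. The 95th percentile of the randomized oligonucleotides was at a net intensity of 1490 in both channels of the first array, and at 3070 (Dlx3) and 4760 (control) on the second. The median transcript spot read 679 and 717 in the Dlx3 channel. A probe is called brighter than the randomized oligonucleotides where, on both arrays, its net intensity passed that percentile in the Dlx3 or the control channel. All 6 tested fibroblast markers were above background and 4 were also brighter than the randomized oligonucleotides, among them vimentin, the collagen gene Col1a2 and Sparc. Their summed net intensity was 146936 and 166418 in the Dlx3 cells and 164665 and 183800 in the empty-plasmid cells, but the spots of vimentin, Col1a2 and Sparc had up to 91, 75 and 11% saturated pixels, so these sums are capped and set no level of one cell population against the other. Most markers of other cell types were dim, with 0 or 1 bright member in each of 8 lists. The bright members were Aif1 of macrophages, Kdr of endothelium, Krt1 of keratinocytes, Retn of adipocytes and Nes of neural cells. Kdr read 18317 and 26667 in the Dlx3 cells against 23459 and 36234 in the empty-plasmid cells. Itgam of macrophages, Cdh5 of endothelium, Utf1 of embryonic stem cells and Syp of neurons were not above background. Among the called genes named below, Lifr, Gusb, Naglu, Il33, Nr4a1, Enpp1, Eps8, Egln3, Tmem86a, Syt13, Ldhb, Mxi1, Ndrg1, P3h3, Fbln1, Matn2, Pmaip1, Igf2, Igfbp1, Angpt1, Fgf7, Cxcl16, Clcf1, Sema4g, Wnt10a, Nkd2, Hey2, Gstm2 and Tfr2 were above local background on only 1 of the 2 stable arrays in at least 1 channel. In bulk RNA, fewer cells of a type and less RNA per cell cannot be told apart.

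Stable Dlx3 transfectants differed from empty-plasmid cells in many genes, mostly by small amounts. A probe was called at a Benjamini-Hochberg adjusted p under 0.05 in limma, and 22.7% of the 14611 tested probes were (11.6% higher and 11.1% lower). The median called change was 1.35-fold, 704 calls exceeded 1.5-fold and 97 exceeded 2-fold, 67 of these higher and 30 lower. Fitting the stable arrays without the transient ones called 1228 probes (8.4%), of which 1213 were among the 3320. Leaving out either transient array is the same test of the stable arrays, because a group of 1 array has no spread of its own. It is therefore no separate check, for single probes or for the gene lists. With 1 stable array left out, the spread came from the transient arrays alone. Calls made that way do not measure the spread between the stable arrays. With 1 probe for each named gene, 22.8% of 10336 genes were called, 11.6% higher and 11.2% lower, and the gene groups below are read against those shares. By size alone, 45 probes (0.308%) passed 2-fold in the same direction on both arrays, 31 higher (0.212%) and 14 lower (0.0958%). P-values measure the spread between these few arrays, whose number limits the precision of every ratio. Of 280 called probes followed through the alternatives, among them those named below, 80 were not called without the second stable array, where a value is the ratio on the first array alone, and 95 were not called without the transient arrays.

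**Figure D1:**
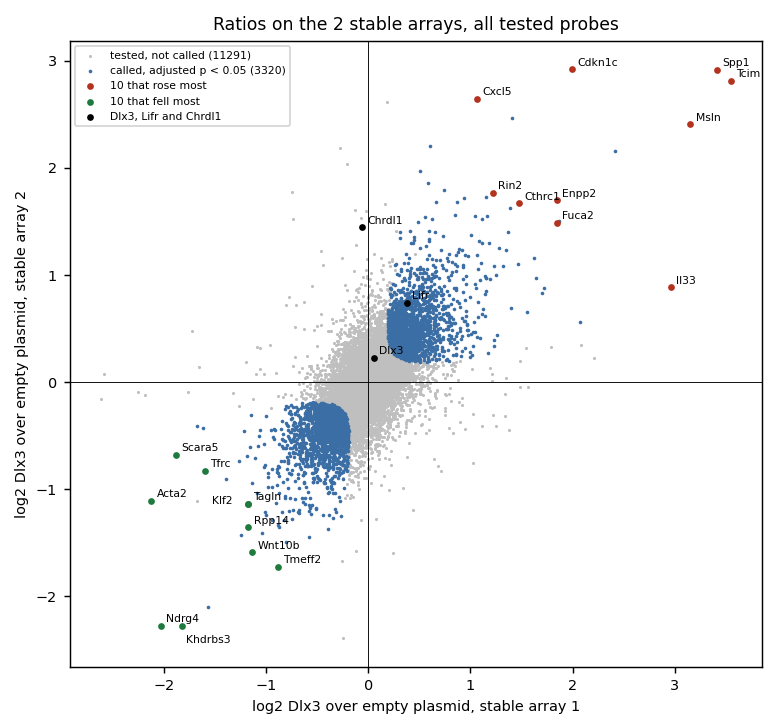
Log2 ratio of Dlx3 over empty plasmid on the first (x axis) and the second (y axis) stable array for every tested probe. Grey points were not called, blue points were called (3320), and the 10 probes that rose most, the 10 that fell most and the 3 genes of the series title are coloured and named. Called probes lie in the upper right and lower left, Dlx3 lies near the origin, and Chrdl1 is high on the second array only.

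Of the 32 gene lists examined, the lysosomal list had the highest share of calls. Lysosomes are the acidic organelles in which hydrolases break down proteins, sugar chains and lipids delivered by endocytosis and autophagy, and a fibroblast secretes part of these enzymes as precursors. Of 52 genes on the list, 43 were tested, 25 were called higher, 2 lower, and 16 did not pass, a share of 62.8% against 22.8% of all tested genes. The median of the 43 was 0.48 (0.31 on the first array and 0.57 on the second), against 0.004 over all tested genes, and 34 of 43 were positive on both arrays, against 37.4% of genes. The 25 that rose did so by 1.23 to 3.17-fold, and 18 of them read higher on the second array than on the first. Among the 15 members brighter than the randomized oligonucleotides, 13 were called, each of them higher. Without the transient arrays, 22 of the 43 were called, 20 of them among the 25 that rose, against 8.48% of genes in that fit. Macrophages are rich in lysosomes. Of 10 macrophage markers, 5 were tested and Spi1 rose (0.38, but 0.21 and not called without the first stable array), Itgam was not above background, and the summed net intensity of the 6 on the array was 7974 and 9456 in the Dlx3 cells against 7153 and 9339. Their part in the lysosomal result was not tested. The lysosomal list had been drawn up with earlier results of these data known, and these counts are a description.

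Enzymes that cut sugar chains made up the largest set, with 10 higher and 1 lower of 18 and a median of 0.50. Fuca2, an alpha-fucosidase, read 1.85 and 1.49 (mean 1.67 ± 0.25, SD, n = 2, adjusted p = 0.00246). Its second probe rose too, with 1.25 and 1.00. Hexa, whose product is the alpha subunit of beta-hexosaminidase and is deficient in Tay-Sachs disease, read 0.94 and 1.19 (2.09-fold, adjusted p = 0.00503). Gaa, the acid alpha-glucosidase that degrades glycogen, rose too (0.65 and 1.03). Neu1, the lysosomal sialidase, read 0.56 and 1.27 (adjusted p = 0.0188). Gusb, the beta-glucuronidase, and Naglu, a heparan sulfate-degrading enzyme, rose by 1.62 and 1.55-fold, each with both channels above background on 1 of 2 arrays. The alpha-galactosidase Gla (0.28 and 0.69) and the beta-galactosidase Glb1 (0.24 and 0.40) had small rises. Ids, a sulfatase of heparan and dermatan sulfate, fell, with -0.42 and -0.46 (adjusted p = 0.0171). Man2b1, Idua, Arsb, Fuca1, Manba and Galc did not pass, with means from -0.30 to 0.30. Ids was not called under print-tip loess (-0.21), nor was Gla without the second stable array (0.28).

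Proteases had the highest median, 0.73, with 6 higher and 1 lower of 11. Ctsa, the protective protein that stabilises beta-galactosidase and sialidase, read 0.74 and 1.79 (mean 1.27 ± 0.74, adjusted p = 0.0175). Tpp1, a tripeptidyl peptidase lost in a form of Batten disease, read 0.85 and 1.56 (adjusted p = 0.0102). Both ratios were under 1 on the first array and over 1.5 on the second. The cathepsins followed, Ctsl with 1.15 and 0.85, Ctsd with 0.59 and 0.99, Ctsz with 0.69 and 0.89 and Ctsb with 0.71 and 0.75 (adjusted p = 0.00612, 0.0117, 0.00784 and 0.00702). Ctsk, the collagen-cleaving cathepsin best known from osteoclasts, went the other way, with -0.72 and -0.39 (1.47-fold lower, adjusted p = 0.0181). The cathepsins Ctsc, Ctsf and Ctsh and the legumain gene Lgmn did not pass.

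Of 7 genes for lipid hydrolases, their activators and sterol carriers, 6 rose and none fell, with a median of 0.50. Asah1, the acid ceramidase, read 0.73 and 0.71, Lipa, the acid lipase that frees cholesterol from its esters, 0.77 and 0.50, and Psap, the precursor of the saposins, 0.55 and 0.55. Both carriers that pass cholesterol out of the lysosome were called, the soluble Npc2 with 0.47 and 0.53 and the membrane-bound Npc1 with 0.23 and 0.69. The sphingomyelinase Smpd1 rose by 1.23-fold. Smpd1 was not called under print-tip loess (0.16), nor was Npc1 without the second stable array (0.23). Among 7 membrane and other proteins, 3 rose, namely the tetraspanin Cd63 (0.92 and 1.23), the progranulin gene Grn (0.52 and 0.98) and Laptm4a (0.61 and 0.30). The abundant membrane glycoproteins of the organelle, Lamp1 (-0.10 and 0.57) and Lamp2 (-0.09 and -0.15), did not pass, nor did Scarb2 and Cln3.

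**Figure D2:**
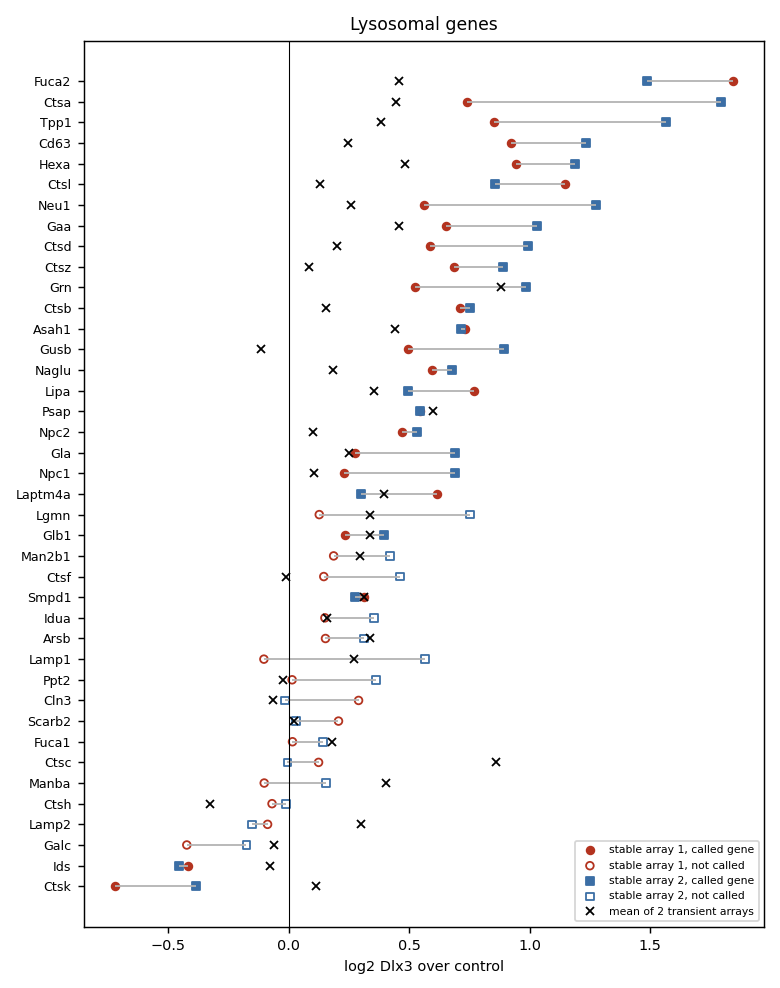
Log2 ratio of Dlx3 over control for 40 of the 43 tested lysosomal genes, ordered by the stable mean. Circles are the first stable array, squares the second, filled where the gene was called, and crosses are the mean of the 2 transient arrays. Most circles and squares lie to the right of 0, Ids and Ctsk lie to the left on both arrays, and most crosses lie between 0 and 0.6.

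Genes outside the list that serve the same organelle were examined after these values were seen. Of 20 tested genes for the proton pump that acidifies lysosomes and for the MiT/TFE transcription factors and their partners, 5 rose and none fell, with a median of 0.20. The share of these genes called lay near the 22.8% of all genes. Atp6ap2, an accessory subunit of the pump, read 0.69 and 0.97, the catalytic subunit Atp6v1a 0.49 and 0.96, Atp6v1f 0.27 and 1.11, Atp6v1e1 0.24 and 0.54, and the lysosomal calcium channel Mcoln1 0.38 and 0.83. Of the 5, 3 were called without the transient arrays, Atp6v1e1 was not called under print-tip loess (0.25), and neither it (0.24) nor Atp6v1f (0.27) was called without the second stable array. Autophagy genes did not move in 1 direction. Of 13 tested, Gabarap (0.58) and Atg7 (0.38) rose, and Becn1 (-0.36) and Atg5 (-0.33) fell. None of these 4 was called by limma without the transient arrays, and Gabarap (0.35) was not called without the second stable array.

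The promoters of the risen lysosomal genes are shown because the members moved together. Many lysosomal genes carry the palindrome CACGTG near their start, a hexamer bound by MiT/TFE factors and by other basic helix-loop-helix proteins such as Myc and Usf. The motif was chosen after the lysosomal values were seen. In the 250 bases upstream of RefSeq starts (GRCm38.p6), CACGTG, which reads the same on both strands, was present in 7 of the 20 risen lysosomal genes for which a promoter was matched (35%). It was present in 4 of 16 matched lysosomal genes that did not rise (25%), in 9.5% of tested genes and in 7.61% of all protein-coding genes of the table. Of these, TCACGTGA was in 3 of the 20 and 1 of the 16, against 1.52% of tested genes. A longer palindrome, which extends TCACGTGA by a further base on each side, was searched too. It was in 0 of the 20 and 1 of the 16, against 0.477% of tested genes. The stretches below run 5′ to 3′ on the gene's strand, with CACGTG in capitals, for 5 of the 7 genes, whose windows lie at the outermost start of the gene.
Naglu, alpha-N-acetylglucosaminidase, GRCm38.p6 chr11:101069981-101070066, + strand, motif 73 bases before the start: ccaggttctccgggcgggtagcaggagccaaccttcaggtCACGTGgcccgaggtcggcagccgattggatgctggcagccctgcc
Glb1, beta-galactosidase, chr9:114400990-114401075, + strand, motif 48 bases before the start: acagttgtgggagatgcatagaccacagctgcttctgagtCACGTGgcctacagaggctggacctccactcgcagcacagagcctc
Gaa, acid alpha-glucosidase, chr11:119267783-119267868, + strand, motif 140 bases before the start: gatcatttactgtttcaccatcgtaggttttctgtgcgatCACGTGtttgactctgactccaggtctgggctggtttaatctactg
Ctsd, cathepsin D, chr7:142388027-142388077, - strand, motif 245 bases before the start: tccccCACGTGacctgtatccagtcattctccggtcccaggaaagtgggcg
Gla, alpha-galactosidase, chrX:134601187-134601255, - strand, first motif 227 bases before the start: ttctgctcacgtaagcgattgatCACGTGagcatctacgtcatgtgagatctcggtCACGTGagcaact
Gla holds 2 copies in this stretch, and the other 4 genes hold 1 each. A match is a run of letters, not a shown site of binding.

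The homeodomain core was searched in the same way among the genes that changed most. TAATT, on either strand, was present upstream of 3 of the 20 matched genes among the 30 that rose most (15%) and of 1 of the 20 among the 30 that fell most (5%), against 19.8% of tested genes. The longer TAATTG was found in 1 and 0 of these genes, against 5.48% of tested genes. The stretches of Mmp14, which rose, and Ndrg4, which fell, are given with TAATT in capitals.
Mmp14, membrane-type matrix metalloproteinase, GRCm38.p6 chr14:54431487-54431571, + strand, motif 71 bases before the start: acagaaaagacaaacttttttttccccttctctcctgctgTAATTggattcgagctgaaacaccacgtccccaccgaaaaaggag
Ndrg4, N-myc downstream-regulated gene, chr8:95676855-95676939, + strand, motif 79 bases before the start: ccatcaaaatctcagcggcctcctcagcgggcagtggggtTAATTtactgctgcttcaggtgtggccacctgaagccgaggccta

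The largest rises, over 5-fold, were those of Tcim, a small regulator of transcription, Spp1 (osteopontin), the surface protein Msln (mesothelin) and the cyclin-dependent kinase inhibitor Cdkn1c. Net intensities of Spp1 were 8890 and 4262 in the Dlx3 cells against 819 and 514 in the empty-plasmid cells. Those of Msln were 3814 and 2609 against 384 and 438, and those of Cdkn1c 4151 and 10315 against 1034 and 1397. On both arrays the Dlx3 channel of each was far above the control channel. Msln is also a marker of mesothelium, whose other measured markers moved by less or the other way, with Krt19 lower (-0.57, adjusted p = 0.0316) and Muc16 and Krt8 not called. All 4 were above background and none was brighter than the randomized oligonucleotides on the rule used here, and with Msln included they summed to 4960 and 4412 in the Dlx3 cells against 2000 and 2618. The part of mesothelial cells in the rise of Msln was not tested.

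**Figure D3:**
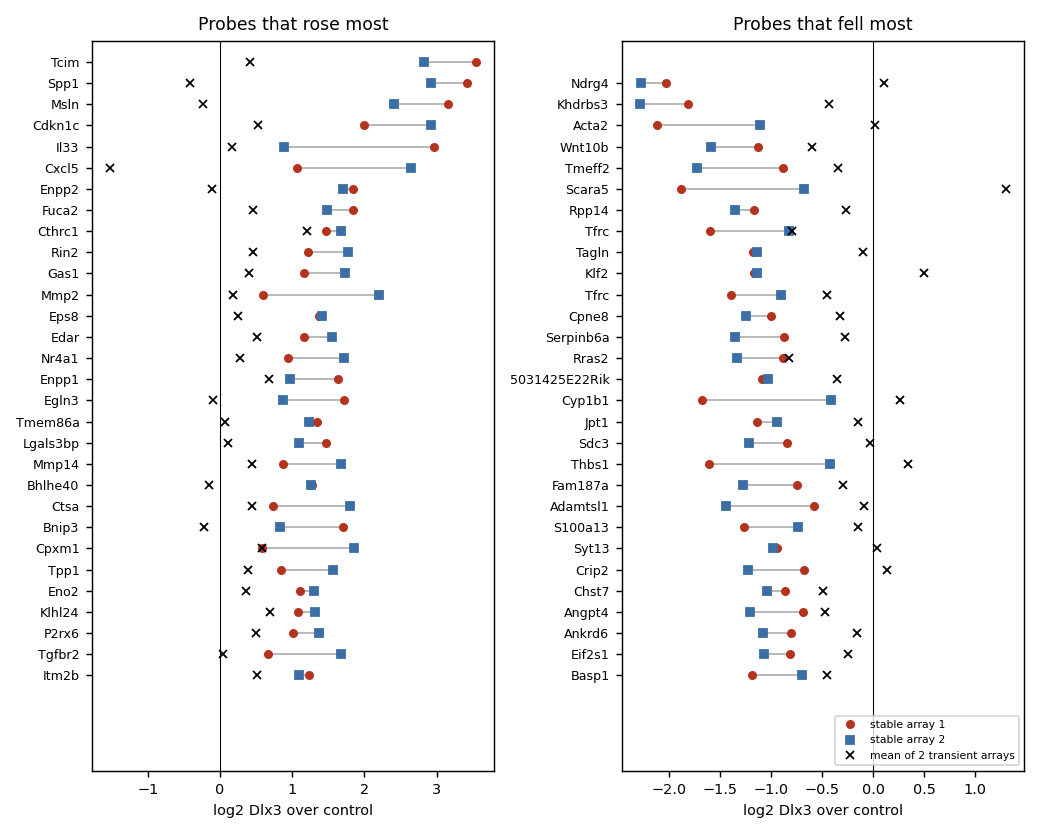
Log2 ratio of Dlx3 over control for the 30 probes that rose most (left) and 29 of the 30 that fell most (right) among called probes with a gene symbol. Circles are the first stable array, squares the second, and crosses the mean of the 2 transient arrays. Il33, Cxcl5, Mmp2, Cyp1b1 and Thbs1 have wide gaps between the stable arrays, and Eps8, Bhlhe40, Tagln and Klf2 have narrow ones.

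Among the 30 probes that rose most, several code for membrane receptors and signalling proteins. Eps8, a substrate of the EGF receptor that regulates actin, read 1.37 and 1.41 (mean 1.39 ± 0.03, SD, n = 2, adjusted p = 0.00239), with each channel above background on 1 of 2 arrays. Edar, the receptor for ectodysplasin in hair, tooth and sweat gland development, read 1.16 and 1.55 (2.56-fold, adjusted p = 0.00427), with net intensities of 1568 and 3245 against 669 and 1087. These 2 genes had similar ratios on both arrays, in contrast to Tgfbr2, the type II receptor for TGF-beta, with 0.66 and 1.68. P2rx6, a subunit of ATP-gated channels, read 1.00 and 1.38, and Itm2b, a membrane protein cut to amyloid-forming peptides in familial dementias, 1.23 and 1.09. Klhl24, an adaptor of a ubiquitin ligase, rose at all 3 of its probes (means of 1.20, 0.71 and 0.62). Tmem86a, a membrane protein with lysoplasmalogenase activity, read 1.35 and 1.23, on dim spots with net intensities of 416 and 333 against 123 and 103.

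Other risers act outside the cell or in the response to low oxygen. Mmp14, the membrane-anchored protease that activates the product of Mmp2, read 0.87 and 1.68 (adjusted p = 0.0114), and Lgals3bp, a secreted galectin-binding protein, 1.46 and 1.10. Cpxm1, a carboxypeptidase-like secreted protein, read 2.33-fold higher. Neither array showed it above background in the empty-plasmid cells, so the size of this ratio is uncertain. Enpp1, which makes the mineralization inhibitor pyrophosphate, read 1.64 and 0.97. Egln3, a prolyl hydroxylase of hypoxia-inducible factor, read 1.72 and 0.87, and Bnip3, a mitochondrial protein of mitophagy, 1.70 and 0.83. Both are known targets of hypoxia-inducible factor, and both were higher on the first array than on the second. The transcriptional repressor Bhlhe40 read 1.28 and 1.26. Eno2, an enolase of glycolysis, read 2.30-fold higher. Like Cpxm1, it was not above background in the empty-plasmid cells on either array, and the size of its ratio is uncertain. Of the 30 probes, 13 were brighter than the randomized oligonucleotides, 19 passed 2-fold on both arrays and 29 were called without the transient arrays, the exception being Mmp2 (adjusted p = 0.0514).

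Because low-oxygen genes stood among the leaders, glycolysis and other hypoxia-responsive genes were counted after these values were seen. Of 16 tested glycolysis genes, 6 rose and 3 fell, with a median of 0.23. Eno2, named above, enters neither these counts nor the median. Pfkl (1.07 and 0.42), Aldoa (0.83 and 0.59), Pfkm (0.79 and 0.57), Tpi1 (0.79 and 0.20) and Ldhb (0.51 and 1.26) rose. The other call upward was Hk2, whose probe was not above background in either channel of the stable arrays. Eno3 (-0.69), Pgam2 (-0.51) and Pgam1 (-0.33, on a spot with up to 13% saturated pixels, but 0.0499 under print-tip loess) fell. Tpi1 was not called without the first stable array (0.20). Of 12 other hypoxia-responsive genes, the carbonic anhydrase Car12 (0.67), Mxi1 (0.65) and adrenomedullin Adm (0.42) rose, and endothelin Edn1 (-0.61) and Ndrg1 (-0.31) fell. Of these 5, Adm (adjusted p = 0.0521) and Ndrg1 (0.0982) were not called without the transient arrays, nor was Ndrg1 under print-tip loess (-0.10). Members of these groups thus moved in both directions.

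A few of the strongest probes carried no symbol and are called by the descriptions in the files, chosen after their values were seen. Matrix gamma-carboxyglutamate protein, an inhibitor of calcification, read 2.41 and 2.16, insulin-like growth factor binding protein 5 read 1.41 and 2.46, and early growth response 1 had a mean of 1.69. Hepatocyte growth factor read 2.62-fold higher, a ratio of uncertain size. Neither array showed it above background in the empty-plasmid cells, and 1 of 2 showed it in the Dlx3 cells. The interleukin 1 receptor antagonist read 1.04 and 1.55, with the control channel above background on 1 of 2 arrays. Downward, procollagen C-endopeptidase enhancer 2 read -1.57 and -2.10 and inhibitor of DNA binding 1 read -1.04 and -1.41. The measured ratios of all 7 passed 2-fold on both arrays.

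Among probes with a symbol, the largest falls were of Ndrg4, the RNA-binding protein Khdrbs3 and smooth muscle actin Acta2. Net intensities of Ndrg4 were 601 and 781 in the Dlx3 cells against 2661 and 4050 in the empty-plasmid cells. Below them, Serpinb6a, an intracellular protease inhibitor, read -0.88 and -1.35 (mean -1.11 ± 0.34, SD, n = 2, adjusted p = 0.00819). The small GTPase Rras2 read -0.88 and -1.33. Jpt1 (-1.14 and -0.94), the heparan sulfate proteoglycan Sdc3 (-0.84 and -1.21), the calcium-binding protein S100a13 (-1.27 and -0.74) and Basp1, a membrane-bound signalling protein (-1.19 and -0.69), fell by 1.92 to 2.06-fold. Eif2s1, the alpha subunit of the initiation factor eIF2, read -0.82 and -1.07, and Crip2, a LIM-domain protein, -0.68 and -1.22. All of these were lower on both arrays.

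Chst7, a sulfotransferase (-0.87 and -1.04), Angpt4, an angiopoietin (-0.69 and -1.21), Ankrd6, a WNT pathway protein (-0.81 and -1.08), Adamtsl1 (-0.58 and -1.45), Fam187a (-0.75 and -1.28), 5031425E22Rik (-1.09 and -1.04) and the synaptotagmin Syt13 (-0.94 and -0.98) completed the 30. The arrays differed widely for the matrix protein Thbs1 (-1.61 and -0.43) and for Cyp1b1, a cytochrome P450 that oxidises aromatic hydrocarbons (-1.68 and -0.41), and neither was called without the transient arrays (adjusted p = 0.0561 and 0.0595). The other 28 were. Angpt4 was not called under print-tip loess (-0.58), nor was Adamtsl1 without the second stable array (-0.58). Of the 30 probes that fell, 13 were brighter than the randomized oligonucleotides and 10 passed 2-fold on both arrays. Rpp14 is among the 10, with net intensities of only 18 and 21 in the Dlx3 cells. Neither array showed it above background there, so the size of its ratio is uncertain. Second probes of Scara5 (-0.11), Tmeff2 (0.01) and Cpne8 (-0.37) were not called (adjusted p = 0.344, 0.924 and 0.0843), whereas both probes of the transferrin receptor Tfrc fell.

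The calls among genes of mineralized tissue were all upward. Of 15 tested, 7 rose, 0 fell and 8 did not pass (46.7%, against 22.8% of all genes), with a median of 0.28. After Spp1, Cthrc1 (1.47 and 1.67) and Enpp1 came Alpl, the tissue-nonspecific alkaline phosphatase that degrades pyrophosphate (0.72 and 0.81, adjusted p = 0.0119), and the phosphate transporter Slc20a1 (0.68 and 0.72, adjusted p = 0.00784). The cartilage genes Comp (0.61, on a spot with up to 68% saturated pixels) and Acan (0.37) also rose. Acan was not called under print-tip loess (0.25) or without the second stable array (0.23). Ibsp, Mepe and Phex, genes of bone-forming cells, read -0.31, -0.14 and 0.01 and did not pass, on spots with net intensities under 1000 in both channels. Sox9 (0.05) and Col10a1 (0.07), of cartilage, did not pass either.

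Calls among collagens and the enzymes that process them were all upward, but the share of collagens called lay below the 22.8% of all genes. Of 12 processing genes, 6 rose and 0 fell, namely Pcolce (0.36 and 0.82), Tll1 (0.30 and 0.65), the collagen chaperone Serpinh1 (0.23 and 0.62), the prolyl hydroxylases P4ha2 (0.46 and 0.35) and P3h3 (0.35 and 0.37) and the crosslinking enzyme Lox (0.48 and 0.24). Of these, Pcolce alone was called without the transient arrays (adjusted p = 0.0486), and 3 were called without the second stable array. Of 20 collagen genes, 3 rose, Col6a1 (0.54 and 1.02), Col4a6 (0.48 and 0.68) and Col8a1 (0.42 and 0.46), and the fibrillar collagens Col5a1 (0.04) and Col5a2 (-0.10) did not pass. Col1a2 read 0.08 on a spot with up to 75% saturated pixels, which caps both channels. Among 26 matrix proteases and inhibitors, 6 rose and 3 fell, with Mmp19 (0.69), Mmp11 (0.53) and the plasminogen activator Plat (0.64) among those that rose. Matrix glycoproteins were split, with 6 higher and 6 lower of 32, led by Fbln1 (1.03), Mfap2 (1.01) and Matn2 (0.67) upward and by Thbs1, Fbln5 (-0.64) and Tnxb (-0.57) downward. Of 8 small leucine-rich proteoglycans, decorin Dcn rose (0.93 and 1.07) and Fmod fell (-0.43). Of 14 integrins, Itga7 rose (0.87) and Itga8 (-0.54), Itga3 (-0.38) and Itgax fell. Itgax read 1.21-fold lower, a ratio of uncertain size, with the Dlx3 channel not above background on either array. The shares of proteoglycans and of integrins called lay near the 22.8% of all genes. Under print-tip loess Fmod (-0.24) and Itgax were not called, and under median centring Lox (0.21) and Serpinh1 (0.27) were not. Itga3 was not called without the second stable array (-0.21), nor was Fmod without the first (-0.26). Without the first stable array there were 6 calls among collagens, 15 among proteases, 19 among glycoproteins and 7 among integrins. Without the second there were 5 among collagens and 4 among proteoglycans. Without the transient arrays 6 glycoproteins, 2 integrins and 1 proteoglycan were called.

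The calls among genes of the contractile apparatus were all downward. Of 19 tested, 0 rose, 5 fell and 14 did not pass, with a median of -0.20. Acta2 read -2.12 and -1.11 and the actin-binding protein Tagln -1.18 and -1.14. Csrp1 (-0.49 and -0.76), the actin crosslinker Actn1 (-0.47 and -0.43) and calponin Cnn1 (-0.46 and -0.39) fell by less. Their net intensities were high, with 15598 and 8949 for Acta2 in the empty-plasmid cells against 3314 and 3739 in the Dlx3 cells. Mylk (-0.24) and Myh11 (0.18) did not pass, nor did Actg2 and Tpm1, whose spots had up to 98 and 75% saturated pixels. The share called, 26.3%, lay near that of all genes, and 8 were called without the second stable array. Of 11 genes of the YAP and TEAD list, Tead2 was the 1 call (0.51). A second, dimmer probe of Tead1 rose (0.42), while the brighter one did not pass (0.17). With the first or the second stable array left out, 4 of the 11 were called.

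The calls among inhibitors of the cell cycle were mostly upward, and those among genes of replication and mitosis were split. Of 23 cyclin-dependent kinase inhibitors and growth arrest genes, 10 rose and 1 fell (47.8% called), with a median of 0.31. Besides Cdkn1c and Gas1, these were Cdkn2a (0.64 and 0.53), Cdkn2c (0.35 and 0.67), Cdkn1b (0.43 and 0.56), Cdkn2b (0.48 and 0.30), the retinoblastoma gene Rb1 (0.82 and 0.26), Btg2 (1.13 and 0.68) and the p53 targets Pmaip1 (0.97 and 0.49) and Bax (0.37 and 0.25). Gadd45g fell (-0.98 and -0.85). Of 44 cyclins and genes of replication and mitosis, 6 rose and 9 fell, among them the kinases Cdk4 (0.67), Cdk2 (0.39) and Cdk6 (0.33) upward and Rrm2 (-0.66), Gmnn (-0.59), Cdc25c (-0.55) and Ccnd3 (-0.48) downward. Of 28 imprinted genes, 6 rose and 1 fell, with Cdkn1c, Dcn, Sgce (0.66), Slc22a18 (0.37), Igf2 (0.35) and Ppp1r9a (0.32) up and Ascl2 (-0.37) down. Of 14 genes of the insulin-like growth factor axis, Igfbp1 (0.86) and Igf2 rose and Igf2bp1 fell (-0.41). In the imprinted list and in this axis the share called lay near the 22.8% of all genes. Probes without a symbol enter neither count. Among these, insulin-like growth factor binding protein 5 read 1.41 and 2.46 and insulin-like growth factor 2 receptor 1.08 and 1.05. Without the transient arrays there were 7 calls among growth arrest genes, 4 among genes of replication and mitosis, 2 among imprinted genes and 1 in the growth factor axis. Without the first stable array 11 imprinted genes and 5 of the axis were called, and without the second 4 imprinted genes. Under print-tip loess Cdc25c (-0.18) and Ascl2 (-0.17) were not called, and Igf2 was not called with the deposited values (0.16) or with median foreground (0.20). Without the second stable array the calls of Ccnd3 (-0.20), Cdk2 (0.22), Sgce (0.36), Slc22a18 (0.21), Igf2 (0.22) and Igf2bp1 (-0.23) ended, and without the first that of Rb1 (0.26). Ascl2 was not called without the transient arrays either (adjusted p = 0.0717).

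Growth factors and feedback regulators of MAP kinase signalling had 13 higher and 2 lower of 50 (30% called), with a median of 0.18. Among receptors and ligands, Pdgfra read 1.04 and 0.92 (adjusted p = 0.00427), Fgf21 1.55 and 0.65, Pdgfc 0.77 and 0.85, Angpt1 0.51 and 1.08, Vegfa 0.98 and 0.44 and Fgf7 0.81 and 0.55. The feedback inhibitors Errfi1 (0.79 and 0.96), Dusp6 (1.23 and 0.40) and Spry1 (0.79 and 0.60) rose, and Pdgfb fell (-0.56, but -0.18 and not called under print-tip loess). Angpt1 was not called without the second stable array (0.51). Of the 50, 7 were brighter than the randomized oligonucleotides, and 25 were called without the second stable array. Immediate early genes, which respond to growth signals within minutes, had 9 higher and 3 lower of 25 (48% called). Nr4a1 (0.94 and 1.72), Fos (0.72 and 1.23), Cebpd (0.93 and 0.84), Fosl2 (0.46 and 1.00), Ier2 (1.01 and 0.45) and Junb (0.94 and 0.32) rose, and Klf2 (-1.15), Fosl1 (-0.57 and -1.17) and Dusp1 (-0.29) fell.

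Chemokines and cytokines had 8 higher and 4 lower of 35. Il33 (2.96 and 0.88), Cxcl5 (1.06 and 2.64), Cxcl1 (0.55 and 1.54) and Ccl2 (0.31 and 1.40) differed widely between the arrays, and 5 of the 12 calls were also made without the transient arrays. Downward were Csf1 (-0.54), Cxcl16 (-0.52), Ccl22 (-0.38) and Il10 (-0.37). Of 19 NF-kB regulators, Nfkbiz (0.72), Relb (0.66) and the inhibitor Nfkbia (0.35) rose, a smaller share than the 22.8% called among all genes. Interferon-responsive genes had 10 higher and 3 lower of 38, with Ifit2 (1.19 and 0.97) and Irf9 (0.78 and 0.52) up and the immunoproteasome subunits Psmb8 (-0.52 and -0.82) and Psmb9 (-0.62 and -0.72) down. Of 17 complement and acute-phase genes, Clu rose (0.44), again a smaller share than among all genes. In the LIF and IL6 family, 9 of 17 were called (52.9%), among them the receptors Lifr and Osmr (0.45) and the feedback inhibitors Socs2 (0.52), Cish (0.38) and Socs3 (0.30) up and the ligand Clcf1 (-0.69) and the kinase Jak2 (-0.50) down. A second probe of the shared receptor subunit Il6st rose (0.34), while the brighter one did not pass (0.08). Of the 9 calls, 3 were made without the transient arrays, and without the second stable array 3 genes were called. Interferon-responsive calls without the transient arrays numbered 6, NF-kB calls without the first stable array 5, and complement calls without the second 2. Under print-tip loess Psmb9 (-0.31), Il10 (-0.16), Cish (0.25) and Socs3 (0.14) were not called, and Socs3 was not called under median centring (0.17) or with the deposited values (0.18). Without the second stable array Ccl2 (0.31), Cxcl16 (-0.32) and Socs2 (0.30) were not called.

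WNT pathway genes had 10 higher and 5 lower of 41 (36.6% called), with a median of 0.15. Ligands went both ways, Wnt6 (0.94 and 0.57) and Wnt10a (1.17 and 0.28) up and Wnt10b (-1.13 and -1.59) and Wnt4 (-0.58 and -0.52) down. The receptor Fzd1 (0.88 and 1.21), the coreceptor Lrp6 (0.48 and 0.52) and the feedback targets Axin2 (0.72 and 0.68) and Nkd2 (0.40 and 0.43) rose. Wnt10a and Edar are both known as genes of ectodermal development. In the TGF-beta pathway, 4 rose and 2 fell of 30, with the ligands Tgfb3 (0.55) and Tgfb1 (0.42) up. Among 27 BMP genes, 4 rose and 3 fell, with Bmp4 (0.42), Bmp8a (0.53), Fstl1 (0.56) and Twsg1 (0.39) up and Id3 (-1.22 and -0.46), Id2 (-0.64 and -0.86) and Bmpr1b (-0.33) down. Of 20 Notch genes, 4 rose and 3 fell, with Notch3 (0.97 and 0.48) and Rbpj (1.00 and 0.23) up and the target Hey2 (-0.51 and -0.51) down. Of 10 hedgehog genes, Gas1 and Gli1 (0.36) rose and Dhh (-0.48) fell. A second probe of the receptor Ptch1 fell (-0.30), while the brighter one did not pass (-0.04). Axon guidance genes had 4 higher and 3 lower of 35, with Sema4g (0.84), Plxnd1 (0.71) and Ephb4 (0.65) up and Unc5b (-0.49) and Nrp1 (-0.43) down. The shares called in the TGF-beta, BMP and axon guidance lists lay near the 22.8% of all genes. In the DLX and MSX list, limma called 0 of 7, and the median was -0.02. Without the transient arrays there were 8 calls in the WNT list, 3 each in the BMP and Notch lists, 1 in the hedgehog list and 4 in the axon guidance list. Without the first stable array there were 12 each in the TGF-beta and axon guidance lists and 2 in the DLX and MSX list, and without the second 2 in the axon guidance list. Wnt4 was not called under print-tip loess (-0.19). Without the second stable array Bmp8a (0.31), Twsg1 (0.24), Dhh (-0.21) and Plxnd1 (0.41) were not called, nor were Rbpj (0.23) and Wnt10a (0.28) without the first.

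Metabolic groups differed in direction. Of 12 genes of cholesterol synthesis, 5 rose and 0 fell, with a median of 0.28. Of 40 glutathione and antioxidant genes, 2 were called higher, 9 lower and 29 not at all, and the share called, 27.5%, lay near the 22.8% of all genes. The quinone reductases Nqo2 (-0.62 and -0.79) and Nqo1 (-0.38 and -0.73), the thioredoxins Txn1 (-0.30 and -0.72) and Txn2 (-0.35 and -0.52), the peroxiredoxin Prdx3 (-0.37 and -0.61) and glutathione reductase Gsr (-0.32 and -0.49) fell, and the transferases Gstm2 (0.50) and Gstm7 (0.40) rose. Without the transient arrays 4 antioxidant and 3 cholesterol genes were called, without the first stable array 18 and 8, and without the second 6 and 2. Among 18 iron genes, the ferrireductases Steap2 (0.57) and Steap3 (0.44) and the ferritin light chain Ftl1 (0.40) rose, and the transferrin receptors Tfrc and Tfr2 (-0.31, but 0.0134 under print-tip loess) fell. The share of iron genes called also lay near that of all genes. Of 26 genes of lipid mediators, Enpp2, Sgpl1 (0.67), Sphk1 (0.36) and Lta4h (0.30) rose, and the sphingosine phosphate receptors S1pr4 (-0.64) and S1pr3 (-0.38, but 0.0087 under print-tip loess), Tbxas1 (-0.47) and Ptges2 (-0.39) fell. Iron calls numbered 10 without the first stable array, 3 without the second and 2 without the transient arrays, and lipid mediator calls without the transient arrays 4. Under print-tip loess Tbxas1 (-0.14) and Sphk1 (0.17) were not called, under median centring Ftl1 (0.24) was not, and with the deposited values neither Ftl1 (0.25) nor Gstm7 (0.26) was. Without the second stable array Txn1 (-0.30), Gstm2 (0.26) and Steap3 (0.25) were not called, nor was Ptges2 (-0.23) without the first.

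**Figure D4:**
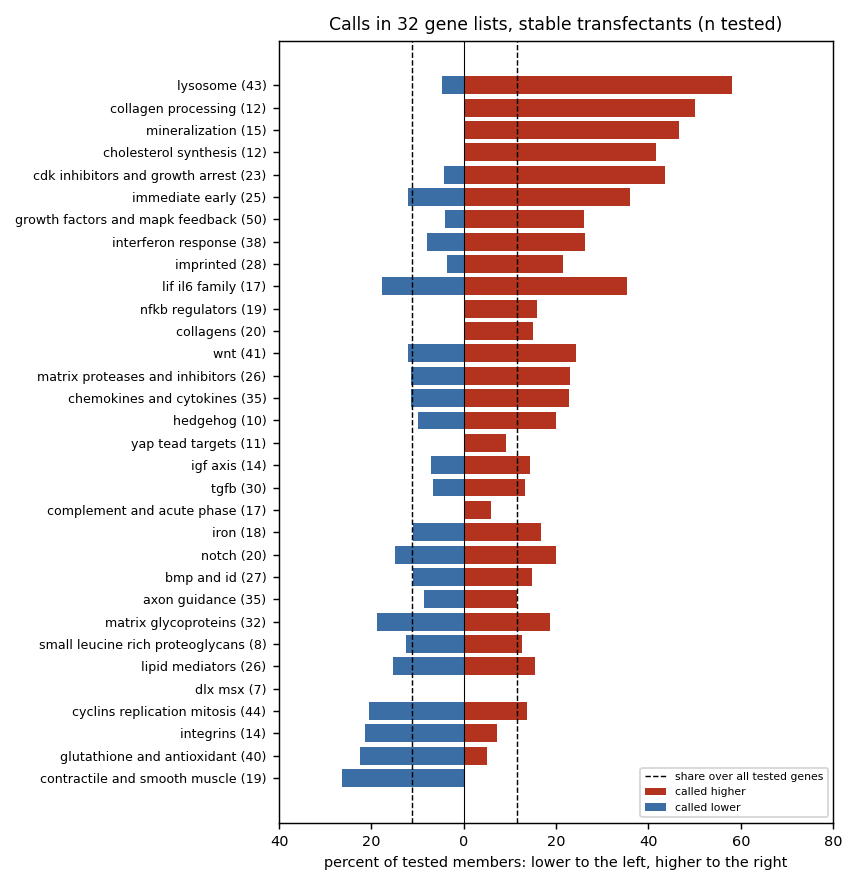
Percent of the tested members of each of 32 gene lists called higher (red, to the right) or lower (blue, to the left) in stable transfectants, with the number tested in brackets, ordered by the difference. The dashed lines mark the shares over all tested genes, 11.6% higher and 11.2% lower. The lysosome list reaches farthest to the right, and the contractile list farthest to the left.

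The difference between the stable and the transient response was tested in the same fit. It was called for 35 of 14611 probes (0.24%), 20 higher and 15 lower in the stable group, and 20 of these are named above. Plain background subtraction called 0 differences (limma, with 2495 at an unadjusted p under 0.05), which ends every call of a difference given here. Scaling between arrays gave 25 higher and 32 lower. The count was 1345 without the first stable array, 258 without the second, 3 without the first transient array and 7 without the second. Spp1 read 3.41 and 2.92 on the stable arrays but -0.47 and -0.35 after 24 h, a difference of 3.58 (adjusted p = 0.0102). Msln, Tcim and Enpp2 likewise were high on both stable arrays and between -0.33 and 0.43 on the transient ones. Col8a1, Cebpd, Errfi1, Nfkbiz, Pdgfc and Fgf7 were positive on both stable arrays and negative on both transient arrays, and Klf2, Id2 and inhibitor of DNA binding 1 the reverse. For the lysosomal list, 0 of 43 differences were called. Its transient median was 0.27, against 0.001 over all genes, with 36 of 43 transient means positive and 0 called by limma, where 0.144% of tested probes were called. In the stable arrays 29 of the 43 lysosomal means were above the transient mean, compared with 50.7% of all genes.

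**Figure D5:**
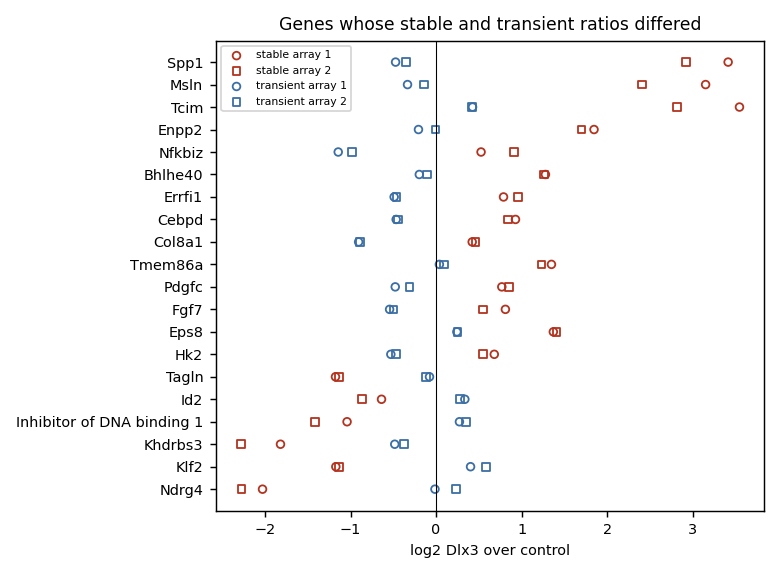
Log2 ratio of Dlx3 over control on each array for 20 genes whose stable and transient ratios differed (adjusted p under 0.05). Red symbols are the 2 stable arrays, blue symbols the 2 transient arrays. In each gene the stable and transient symbols do not overlap.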

How the data were processed

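The deposited scanner tables hold, per the file headers, linear foreground and background intensity at 635 nm (Cy5) and 532 nm (Cy3) and the percent of saturated pixels for 17664 spots, read with GenePix Pro 5.0.0.49. The Cy5 gain was 650 on array 1 and 610 on array 2, and the Cy3 gain was 590 on both. The authors' deposited value table gives a score per spot of unstated scale; set against the scanner values it behaved as minus the control over Dlx3 ratio (column medians -1.001, -1.007, -1.002 and -1.002), and it served as an alternative. How the authors centred it is unknown.

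Background was corrected with normexp (offset 50) and arrays were normalized by global loess in limma 3.58.1 (R 4.3.3), with the 1009 control spots at weight 0. Control spots and spots flagged bad were left out, and repeated spots averaged. Probes above background by 2 SD in either channel on at least 2 of 4 arrays were tested. The model had 1 mean per transfection type over all 4 arrays (2 residual and 4.2 prior degrees of freedom). Where 1 channel was dim, the bright channel was set against the higher of the probe's own dim signal and the lowest signal above background. Both came from loess and Aquantile normalized channels, open to dye bias. For Cpxm1, Eno2, hepatocyte growth factor and Itgax the result equalled the measured ratio and sets no lower limit. The model was tested on simulated data.

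Probes were named through a RefSeq table (GRCm38.p6, names only), by accession for 6678 of 6951 RefSeq probes and by clone name for 5726 others, and 4059 of 16463 have no symbol and enter no gene list. Where a gene had several probes, the brightest stood for it. Named are Dlx3, Lifr, Chrdl1, the 30 called probes with the largest rise and the 30 with the largest fall (1 symbol, same sign on both arrays), and up to 6 called members per list; further called list members were added to complete counts. A few genes are counted but not reported by name here. The members and lists were chosen with earlier results of these data known. The lists of proton pump, autophagy, glycolysis and hypoxia genes, the lysosomal roles and the motif CACGTG were chosen after values were seen. Alternatives covered background correction, normalization, filters, each array left out, the stable arrays alone and the deposited values.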

Additional observations from a re-analysis of the deposited data

Results flagged for a closer look

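The following genes were singled out because their stable and transient ratios differed in the test of that difference (limma, adjusted p from 0.0102 to 0.0469). On the log2 scale, stable minus transient was 3.58 for Spp1, 3.02 for Msln, 2.76 for Tcim, 1.88 for Enpp2, 1.78 for Nfkbiz and 1.42 for Bhlhe40. It was 1.35 for Errfi1, 1.34 for Cebpd, 1.34 for Col8a1, 1.22 for Tmem86a, 1.20 for Pdgfc, 1.20 for Fgf7, 1.14 for Eps8 and 1.11 for Hk2, whose probe was not above background on either stable array. Downward it was -2.26 for Ndrg4, -1.65 for Klf2, -1.62 for Khdrbs3, -1.54 for inhibitor of DNA binding 1, -1.06 for Id2 and -1.06 for Tagln. Under plain background subtraction none of these differences was called (0 of all tested probes by limma, with 2495 at an unadjusted p under 0.05). The groups also differ in their controls, empty-plasmid cells in one and control MEFs in the other, and in the time since transfection, and these cannot be told apart. No group had enough arrays for a search for outlying samples.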

How the results depend on the processing

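Against 3320 stable calls, plain background subtraction gave 2072, scaling between arrays 1975, the filter on probes brighter than randomized oligonucleotides 785 (of 2860 tested) and the stable arrays alone 1228, and leaving out 1 array gave 1228 to 4350. Against 45 probes past 2-fold on both arrays, plain subtraction gave 83, scaling 21, the brighter probes 14 and the deposited values 73. Against 35 called differences from the transient group, plain subtraction gave 0 (limma, with 2495 at an unadjusted p under 0.05), median foreground 54, median centring 88, scaling 57, the brighter probes 9, and leaving out 1 array 3 to 1345. The sign of Chrdl1 turned between the stable arrays, with -0.0604 without the second and 1.45 without the first. Print-tip loess turned Hes6, Pgam1, S1pr3 and Tfr2 to 0.0425, 0.0499, 0.0087 and 0.0134, and the cause was not tested. Of 280 called probes followed singly, the call ended for 69 under plain subtraction, 58 under scaling, 48 under print-tip loess besides the 4 that turned sign, 33 with the deposited values, 80 and 29 without the second and the first stable array and 95 without the transient arrays. Among the 60 probes that changed most, calls ended under robust eBayes for Il33, Mmp2, Cyp1b1 and Thbs1 (adjusted p = 0.0616, 0.0698, 0.0688 and 0.0554), under plain subtraction for Mmp2, Cyp1b1 and Thbs1 (0.0595, 0.0711 and 0.0656), under scaling for Cyp1b1 and Thbs1 (0.0564 and 0.0528), under print-tip loess for Thbs1, Adamtsl1 and Angpt4 (0.0883, 0.0705 and 0.0561), without the second stable array for Rpp14 and Adamtsl1 (0.0685 and 0.083), and without the transient arrays for Mmp2, Cyp1b1 and Thbs1 (0.0514, 0.0595 and 0.0561). Lysosomal calls ranged from 22 to 33 over the alternatives, apart from 13 among the 15 brighter members. No paired analysis was possible because the labels carry no replicate numbers that tie stable to transient arrays. Probes dimmer than the randomized oligonucleotides make up most of those tested, and signal without a target limits them.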
